A study of Mus musculus with 4 samples.

Results

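Axon guidance genes encode the secreted and membrane-bound cues that steer growing axons and the receptors that read them, and fibroblasts use many of the same proteins when they move, adhere or repel each other. Semaphorins signal through plexins, often with a neuropilin as co-receptor; ephrins bind Eph kinases on neighbouring cells; slits bind Robo receptors; and netrins bind Unc5 receptors, among others. Most of these pathways end on small GTPases and the actin cytoskeleton. The genes examined here were 46 listed ligands and receptors: 16 semaphorins with 6 plexins and 2 neuropilins, 6 ephrins with 8 Eph receptors, 2 slits with 2 Robo receptors, and 2 netrins with 2 Unc5 receptors. They were found by their gene symbol in the platform annotation, and 45 of them, all but Ephb2, had a probe set of their own, out of 18193 genes with such a probe set on the array. These 45 genes were read by 111 probe sets.

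The levels come from unstimulated cells of L929, a mouse fibroblast line from connective tissue, and NIH3T3, a mouse embryonic fibroblast line, with 2 arrays per line and no treatment or genetic change named in the labels. The title of the series calls L929 sensitive to necrosis and NIH3T3 sensitive to apoptosis, so each sensitivity is represented by 1 line. Total RNA was hybridised to Affymetrix Mouse Genome 430 2.0 arrays, and the values are MAS5 signals in arbitrary units, brought here to a common trimmed mean. Nothing in the labels says that the arrays of a line came from separate cultures, so the p-values rest on a spread between samples that may be technical, and the number of arrays limits the precision. In such bulk RNA, fewer cells with a transcript and less of it per cell cannot be told apart.

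The deposited median signal was 23.5 and 24.01 for L929, against 23.9 and 38.3 for NIH3T3, and scaling multiplied NIH3T3 replicate 2 by 0.726. Of 11 fibroblast markers with a probe set, 9 in L929 and 11 in NIH3T3 lay above a filter level of 17.3, the 40th percentile of the scaled signals, on both arrays; Dcn and Lum did not in L929. Of markers of other cell types, 1 of 7 neuronal markers in L929 and 3 of 7 in NIH3T3, 4 of 5 macrophage markers in both lines, 2 of 5 epithelial markers in both, 0 of 4 endothelial markers in both, and 2 of 4 skeletal muscle markers in L929 and 1 of 4 in NIH3T3 lay above that level. The summed signal of the neuronal markers was 67.4 to 102 in L929 and 133 to 152 in NIH3T3, that of the macrophage markers 181 to 214 in L929 and 415 to 428 in NIH3T3, and that of the skeletal muscle markers 183 to 218 in L929 and 44.4 to 87.3 in NIH3T3. Their part in the results on guidance genes was not tested.

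The lines differed in 14 guidance cues and receptors. In L929 the repellent slits Slit2 and Slit3, the transmembrane ligand Efnb2, the semaphorins Sema3c and Sema7a and the co-receptor Nrp1 were lower than in NIH3T3, and the netrin receptor Unc5b, the ligands Efnb1, Efna2, Sema6b and Sema4b, the plexins Plxnb2 and Plxnd1 and the receptor Epha7 were higher. Probe sets entered the test when either line had both of its arrays over the filter level, and a gene's value was that of its brightest tested probe set. A call required a limma adjusted p under 0.05 over all genes and a fold over 1.5. Both thresholds are those of the submitters' own design, which names no test. Of the 45 genes, 38 could be tested: in L929, 8 of these were higher, 6 were lower and 24 were not called; 7 were too dim in both lines to be tested.

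These counts were close to those of the array as a whole. Of the guidance genes tested 36.8% were called, against 34.9% of all 12676 genes tested, 17.3% higher and 17.7% lower. The median log2 difference was 0.11 over the guidance genes tested and 0.01 over all genes. Fitted differences of at least 4-fold were called for 5 of the 38 guidance genes tested, 3 higher and 2 lower, beside 7.42% of all genes, 3.16% higher and 4.26% lower. By the brightest probe sets, Nrp1 was the 1 gene lower in L929 with both L929 arrays at or below the filter level (3.56% of all genes), and Epha7 and Efna2 were the 2 higher with both NIH3T3 arrays there (3.03%). For 30 of the 38 the arrays of the lines did not overlap, which held for 73.8% of all genes tested. Because a gene dim in 1 line passes the filter only if it is bright in the other, the 25 guidance genes above the level on all 4 arrays were also counted alone: 5 were higher and 4 lower, and 31.5% of all genes of that kind were called. By the brightest probe sets, the share of guidance genes called was thus near that of the array. Without scaling, 31.2% of the called genes of the array were higher in L929, against 49.5% with it, and 4 guidance genes in place of 8 were higher. The hybridisation controls, bacterial and phage transcripts added to each sample, averaged 1821 and 1669 in L929 and 1818 and 1615 in NIH3T3 as deposited, and 1957 and 1895 in L929 and 2051 and 1173 in NIH3T3 after scaling, so they were closer between arrays without it.

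**Figure D1:**
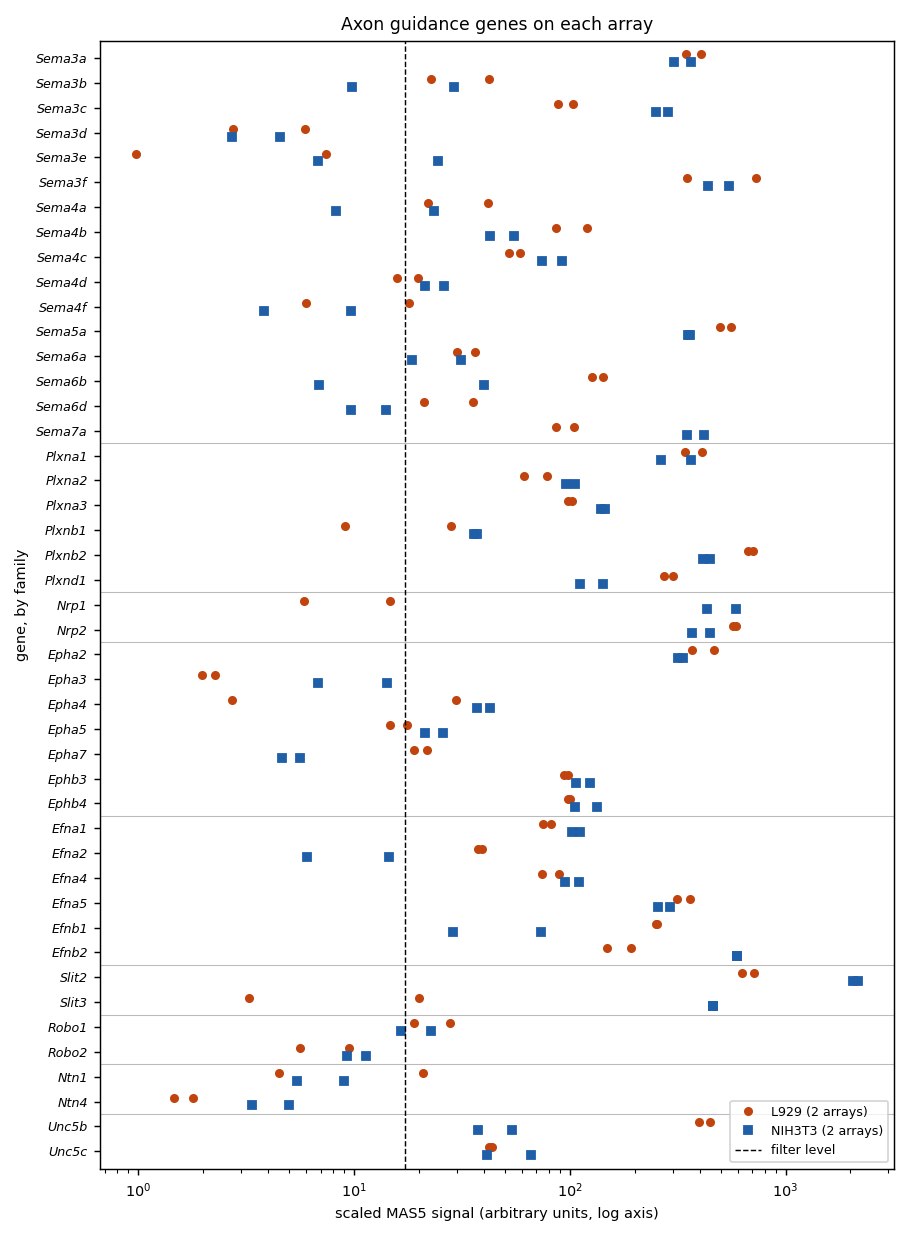
Scaled MAS5 signal of each of the 45 genes on each array (log axis), L929 as circles and NIH3T3 as squares, with the filter level of 17.3 as a dashed line and families separated by grey lines. Points should be compared within a row only, since probe sets differ in brightness; in L929 the signals of Nrp1 lay left of the level and those of Unc5b far right of NIH3T3.

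Slits are secreted repellents read by the Robo receptors. Slit2 measured 713 and 630 in L929 and 2174 and 2057 in NIH3T3. Its level was thus lower on both L929 arrays than on either NIH3T3 array, 3.13-fold on the scale log2(signal + 8.01) used here for log2 differences and folds, other than those given as "at least", which set the signal against the filter level with no offset (log2 difference -1.65, SE 0.12, limma adjusted p = 1.1e-05). All 3 of its probe sets were called lower, with log2 differences of -2.51 to -1.14. Slit3 measured 3.27 and 19.96 in L929 and 462 and 460.4 in NIH3T3. The L929 mean lay below the filter level with 1 of 2 arrays above it, so no fold is given; the log2 difference was -4.72 (SE 0.37, limma adjusted p = 2.1e-05), and it was -4.06 without L929 replicate 1 and -5.38 without L929 replicate 2. Of their receptors, Robo1 was near the level in both lines, at 18.9 and 27.7 in L929 and 22.7 and 16.5 in NIH3T3, and was not called (95% interval of the log2 difference -0.53 to 0.88). Robo2 was too dim to be tested, with 5.62 to 9.47 in L929 and 9.30 to 11.4 in NIH3T3.

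The sequence before the transcription start is shown for both slits, as the cues of 1 family that were lower together, and for Nrp1 and Unc5b, which had the largest differences in each direction among the receptors of the 46 listed genes; these 4 were chosen after their values were seen. The 250 bases come from RefSeq, build GRCm38.p6, 5′ to 3′ on the strand of the gene, and lie at chr5:47982905-47983154 (plus strand) for Slit2, chr11:35121206-35121455 (plus) for Slit3, chr8:128358823-128359072 (plus) for Nrp1 and chr10:60831582-60831831 (minus) for Unc5b. Capitals mark the GC box GGGCGG or its complement CCGCCC, and the TATA box TATAAA or its complement TTTATA.
Slit2: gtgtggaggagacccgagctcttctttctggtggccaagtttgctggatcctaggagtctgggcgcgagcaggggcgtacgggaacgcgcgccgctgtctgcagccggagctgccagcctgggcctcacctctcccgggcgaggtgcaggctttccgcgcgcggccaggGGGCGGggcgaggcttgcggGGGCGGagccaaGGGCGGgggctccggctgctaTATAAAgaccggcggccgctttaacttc
Slit3: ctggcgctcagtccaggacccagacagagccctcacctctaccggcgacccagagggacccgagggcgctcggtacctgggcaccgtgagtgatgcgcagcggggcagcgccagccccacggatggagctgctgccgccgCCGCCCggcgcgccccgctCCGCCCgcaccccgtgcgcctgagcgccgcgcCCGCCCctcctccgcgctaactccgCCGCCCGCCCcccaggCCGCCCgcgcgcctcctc
Nrp1: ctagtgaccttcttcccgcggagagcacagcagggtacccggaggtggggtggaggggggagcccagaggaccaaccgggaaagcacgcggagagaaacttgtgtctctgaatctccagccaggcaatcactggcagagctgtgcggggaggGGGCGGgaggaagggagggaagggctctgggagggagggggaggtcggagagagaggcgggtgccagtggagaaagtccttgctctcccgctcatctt
Unc5b: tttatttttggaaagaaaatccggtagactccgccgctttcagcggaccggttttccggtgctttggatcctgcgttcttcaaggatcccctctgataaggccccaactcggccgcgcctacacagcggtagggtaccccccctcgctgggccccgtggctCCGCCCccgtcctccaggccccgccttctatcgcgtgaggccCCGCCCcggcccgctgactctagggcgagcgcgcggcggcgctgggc
These windows held 3 GC boxes for Slit2, 6 for Slit3 (2 of them overlapping), 1 for Nrp1 and 2 for Unc5b. A TATA box was found in that of Slit2, its first base 28 bases before the start. The motif AP-1 (TGANTCA, its own complement) was found in 0 of the 4. Of 32851 such windows in the table, 32.7% held a GC box, 12.4% a TATA box and 6.75% an AP-1 motif; 41 of the 46 guidance genes matched the table, and of their 55 windows 39 held a GC box, 2 a TATA box and 3 an AP-1 motif. A match in letters is a description and not a bound site, and GC boxes were found before genes higher and before genes lower in L929.

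Neuropilins are co-receptors that bind class 3 semaphorins and the angiogenic factor VEGF and pass the signal to plexins. Nrp1 measured 14.7 and 5.84 in L929 and 432 and 587 in NIH3T3. Both L929 arrays lay below the filter level, so the gene was at least 29.2-fold lower in L929 by this probe set (log2 difference -4.85, SE 0.27, limma adjusted p = 3.3e-06). All 4 Nrp1 probe sets were called lower, from -4.85 to -1.67, and the one at -1.67 read 26.5 and 22.4 in L929, above the level, against 95.6 and 93.9 in NIH3T3; the mean over the probe sets was -3.70. Nrp2, the related co-receptor, measured 571 and 592 in L929 and 368 and 449 in NIH3T3, a 1.42-fold difference under the fold threshold (limma adjusted p = 0.0095). It was called higher without NIH3T3 replicate 2 (log2 difference 0.65, limma adjusted p = 0.0043) and as the mean of its probe sets (0.82, limma adjusted p = 0.0033), as 2 of its 4 probe sets were.

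Class 3 semaphorins are secreted. Sema3c, which binds both neuropilins, measured 103 and 88.2 in L929 and 284 and 252 in NIH3T3, 2.66-fold lower in L929 (log2 difference -1.41, SE 0.15, limma adjusted p = 1.2e-04). A second, dimmer Sema3c probe set differed by -0.32 and was not called. Sema3a, the collapsing factor that acts through Nrp1, measured 406 and 345 in L929 and 363 and 303 in NIH3T3, with overlapping arrays (95% interval of the log2 difference -0.14 to 0.48), and the sign was not settled among its 3 probe sets, which ran from -0.52 to 0.17. Sema3f, a ligand of Nrp2, measured 349 and 733 in L929 and 548 and 439 in NIH3T3. The spread between the L929 arrays exceeded the difference of the means for this probe set, whose identifier carries the suffix for possible cross-hybridisation, whereas the other 2 Sema3f probe sets were called higher at 0.99 and 1.30; the mean of all 3 was called higher (0.78, limma adjusted p = 0.0079). Sema3b measured 22.9 and 42.2 in L929 and 9.79 and 29.2 in NIH3T3 and was not called (95% interval -0.34 to 1.57), with overlapping arrays. Sema3d, at 5.92 and 2.74 in L929 and 4.53 and 2.73 in NIH3T3, and Sema3e, at 0.981 and 7.41 in L929 and 6.84 and 24.6 in NIH3T3, were too dim to be tested.

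Class 4 semaphorins are transmembrane ligands. Sema4b measured 86.3 and 120 in L929 and 55.3 and 42.8 in NIH3T3, 1.94-fold higher (log2 difference 0.96, SE 0.24, limma adjusted p = 0.012). The call was lost without L929 replicate 2 (limma adjusted p = 0.085), without NIH3T3 replicate 2 (0.057) and without scaling (0.28). Sema4a measured 42.0 and 22.0 in L929 and 8.22 and 23.5 in NIH3T3 and was not called (limma adjusted p = 0.15). The identifier of this probe set carries the suffix for possible cross-hybridisation. The other Sema4a probe set, at 53.6 and 28.8 in L929 and 1.60 and 2.05 in NIH3T3, was called higher. Sema4a was called higher under a stricter filter at the 50th percentile, which left that probe set (2.28, limma adjusted p = 5.9e-04), and as the mean of both (1.53, limma adjusted p = 0.0084). Sema4c, a ligand of plexin B2, measured 52.1 and 58.6 in L929 and 74.7 and 91.7 in NIH3T3, and Sema4d, the ligand of plexin B1, 19.8 and 15.8 in L929 and 26.2 and 21.3 in NIH3T3. Neither was called, with 95% intervals of the log2 difference of -1.02 to -0.02 for Sema4c and -0.97 to 0.37 for Sema4d. Sema4f was too dim to be tested, at 18.0 and 5.99 in L929 and 9.64 and 3.84 in NIH3T3.

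The remaining semaphorins are anchored in the membrane. Sema7a, which is held by a lipid anchor and binds integrins and plexin C1, measured 86.5 and 104 in L929 and 350 and 420 in NIH3T3, 3.81-fold lower in L929 (log2 difference -1.93, SE 0.15, limma adjusted p = 2.2e-05). Its second probe set was too dim in both lines to be tested. Sema6b measured 142 and 127 in L929 and 40.2 and 6.91 in NIH3T3, so that 1 of the NIH3T3 arrays reached the filter level. The NIH3T3 mean on the log2 scale lay below the level, so no fold is given; the gene was higher in L929 (log2 difference 2.41, SE 0.47, limma adjusted p = 0.0035), and the difference was 3.25 without NIH3T3 replicate 1 and 1.56 without NIH3T3 replicate 2. Sema5a, which carries thrombospondin repeats, measured 500 and 557 in L929 and 361 and 354 in NIH3T3. Its 1.47-fold difference lay just under the fold threshold (limma adjusted p = 0.0036), and it was called higher without L929 replicate 1 (0.63, limma adjusted p = 0.011), with median scaling and as the mean of its 4 probe sets. Sema6a overlapped between the lines, at 30.1 and 36.3 in L929 and 31.4 and 18.6 in NIH3T3. Sema6d measured 21.0 and 35.5 in L929 and 9.69 and 14.1 in NIH3T3 and was not called (log2 difference 0.84, limma adjusted p = 0.065), except with median scaling (0.89, limma adjusted p = 0.045).

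**Figure D2:**
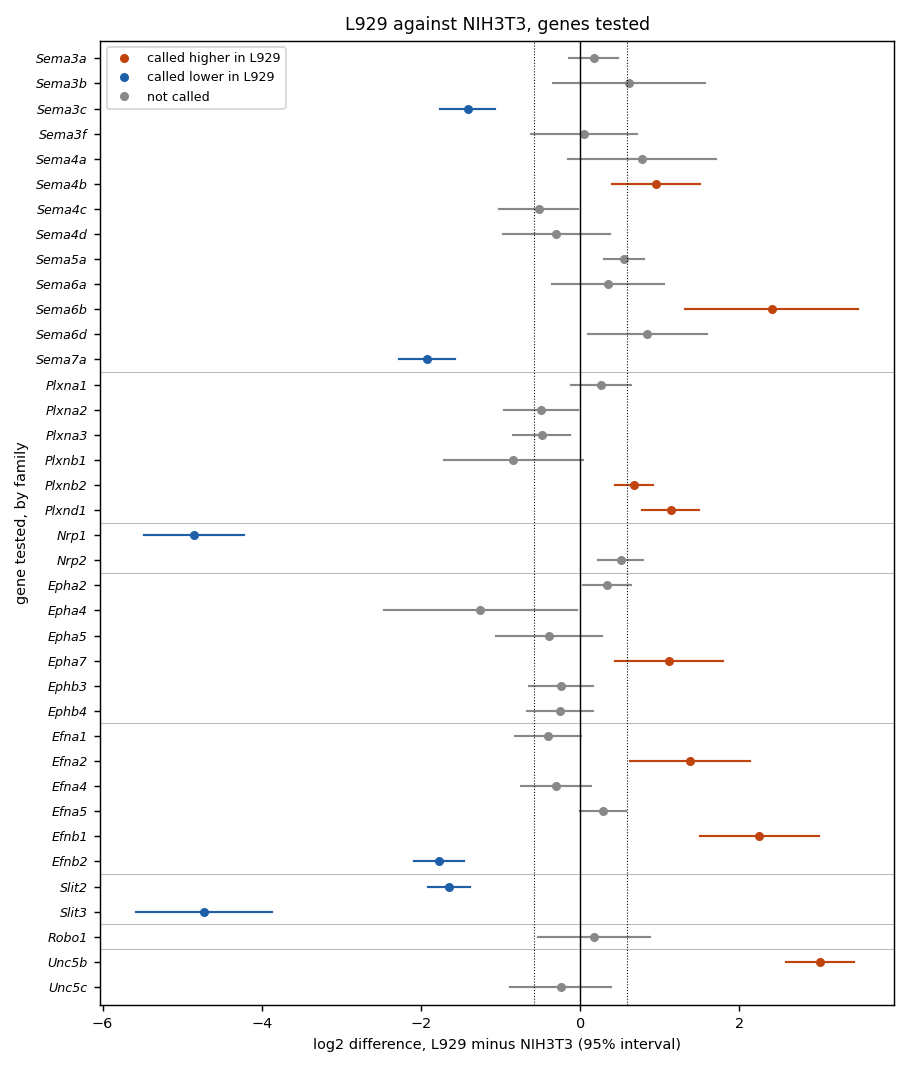
Log2 difference, L929 minus NIH3T3, of the 38 genes tested, with 95% intervals from limma and dotted lines at a fold of 1.5. The largest differences are those of Nrp1 (-4.85) and Slit3 (-4.72) to the left and Unc5b (3.02) to the right.

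Plexins are the receptors that turn semaphorin binding into changes of the cytoskeleton. Plxnd1, the receptor of Sema3e, measured 272 and 300.2 in L929 and 142 and 111 in NIH3T3, 2.20-fold higher (log2 difference 1.14, SE 0.15, limma adjusted p = 4.6e-04). Plxnb2 measured 673 and 708 in L929 and 416 and 445 in NIH3T3, 1.59-fold higher (log2 difference 0.67, SE 0.10, limma adjusted p = 0.0010). Both calls were lost without scaling, at 0.86 for Plxnd1 (limma adjusted p = 0.19) and 0.39 for Plxnb2 (limma adjusted p = 0.58), a setting that moved the median log2 difference of all genes to -0.26. The class A plexins Plxna1, Plxna2 and Plxna3, which pair with neuropilins or bind class 6 semaphorins, were not called, at log2 differences of 0.26, -0.49 and -0.48. Plxna1 overlapped between the lines, at 342 and 409 in L929 and 365 and 264 in NIH3T3, and Plxna2 did not, at 61.7 and 78.8 in L929 and 96.5 and 106 in NIH3T3. The arrays of Plxna3 did not overlap, at 97.8 and 102 in L929 and 140 and 146 in NIH3T3 (limma adjusted p = 0.034), but the fold was 1.40. Plxnb1 measured 28.1 and 9.10 in L929 and 37.2 and 35.9 in NIH3T3 and was not called (limma adjusted p = 0.10); of the 15 alternatives, leaving out L929 replicate 1 gave a call (-1.37, limma adjusted p = 0.018).

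Ephrins are membrane-bound ligands that signal between touching cells, and those of the B class span the membrane and can signal back into the cell that carries them. The 2 B-class ephrins measured went opposite ways. Efnb1 measured 252 and 253 in L929 and 28.8 and 73.4 in NIH3T3, 4.76-fold higher (log2 difference 2.25, SE 0.32, limma adjusted p = 6.6e-04), and all 3 of its probe sets were called higher, from 1.74 to 2.25. Efnb2 measured 192 and 149 in L929 and 599 and 594 in NIH3T3, 3.41-fold lower (log2 difference -1.77, SE 0.14, limma adjusted p = 2.0e-05), and all 4 of its probe sets were called lower, from -1.77 to -0.98. For neither gene did the arrays of the lines overlap.

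Among the lipid-anchored A-class ephrins, Efna2 measured 37.6 and 39.2 in L929 and 6.02 and 14.6 in NIH3T3, and both NIH3T3 arrays lay below the filter level. The gene was higher in L929 by at least 2.22-fold (log2 difference 1.38, SE 0.33, limma adjusted p = 0.0086). The second Efna2 probe set was also called higher, at 2.22 on the log2 scale, and the call of the gene was lost without NIH3T3 replicate 1 (1.04, limma adjusted p = 0.053). Efna5 measured 314 and 360 in L929 and 258 and 291 in NIH3T3, Efna1 75.4 and 81.6 in L929 and 102 and 111 in NIH3T3, and Efna4 74.3 and 89.1 in L929 and 95.5 and 110 in NIH3T3. Although the arrays of the lines did not overlap for these 3 ephrins, they were not called, with folds of 1.22, 1.32 and 1.23. Efna1 was called lower as the mean of its 2 probe sets (-0.64, limma adjusted p = 0.018).

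Eph receptors are receptor tyrosine kinases named by the class of ephrin they bind. Epha7 measured 19.0 and 21.9 in L929 and 4.64 and 5.62 in NIH3T3, a weak signal just above the filter level in L929. It was higher there by at least 1.18-fold (log2 difference 1.11, SE 0.30, limma adjusted p = 0.015). Leaving out any single array of the 4 removed this call (limma adjusted p = 0.065 to 0.089), as did no scaling (0.13) and an offset of 32, which brought the log2 difference to 0.50. The other 3 Epha7 probe sets were too dim to be tested and did not share a direction. A probe set of these was lower in L929, at 8.45 and 1.35 against 17.1 and 9.59 in NIH3T3. Another was higher in L929, at 3.58 and 2.26 against 0.899 and 0.490 in NIH3T3. For the last, the arrays of the lines overlapped. Epha4, which binds ephrins of both classes, measured 2.71 and 29.7 in L929 and 37.3 and 42.8 in NIH3T3. The L929 arrays lay far apart and the gene was not called (log2 difference -1.25, limma adjusted p = 0.084). The difference was -0.34 without L929 replicate 1 (limma adjusted p = 0.49) and -2.16, called lower, without L929 replicate 2 (limma adjusted p = 0.0024). It was also called lower without scaling (-1.47, limma adjusted p = 0.0049), as the mean of its tested probe sets (-1.42, limma adjusted p = 0.011) and in the fit with a replicate block (limma adjusted p = 0.027). Epha2, a receptor common in cultured epithelial and mesenchymal cells, measured 369 and 465 in L929 and 319 and 336 in NIH3T3 (95% interval of the log2 difference 0.03 to 0.64). Ephb3 measured 94.1 and 97.9 in L929 and 106 and 124 in NIH3T3, and Ephb4, the main receptor of Efnb2, 100.1 and 98.2 in L929 and 134 and 106 in NIH3T3. They were not called, at log2 differences of -0.24 and -0.25, nor was Epha5 at -0.39, with 17.6 and 14.7 in L929 and 26.0 and 21.3 in NIH3T3. Epha3 was too dim to be tested, at 1.98 and 2.28 in L929 and 14.2 and 6.78 in NIH3T3.

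Netrins are secreted laminin-like cues, read as repellents by the Unc5 receptors. Unc5b measured 399 and 449 in L929 and 54.2 and 37.6 in NIH3T3. It was 8.09-fold higher in L929 (log2 difference 3.02, SE 0.18, limma adjusted p = 5.1e-06), the arrays were far apart, and both Unc5b probe sets were called higher, at 3.02 and 2.35. Unc5c measured 43.8 and 42.3 in L929 and 66.2 and 41.5 in NIH3T3, with overlapping arrays (95% interval of the log2 difference -0.88 to 0.39). The ligands were near background: Ntn1 measured 4.47 and 20.9 in L929 and 5.43 and 8.94 in NIH3T3, and Ntn4 1.47 and 1.79 in L929 and 3.37 and 5.0 in NIH3T3, and neither was tested. The filter level is a percentile of the signals and not a measured detection limit, so these values do not show that the transcripts were absent.

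**Figure D3:**
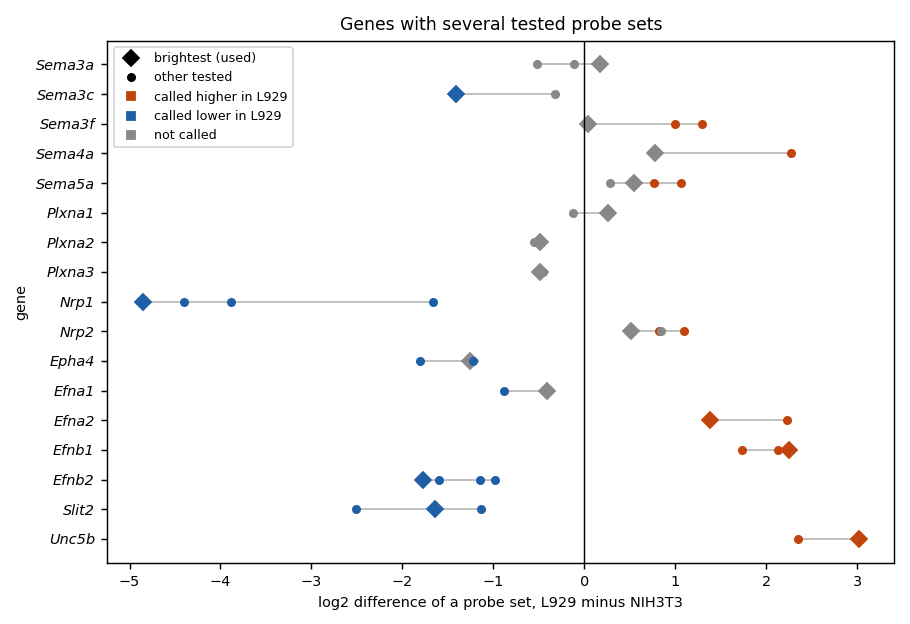
Log2 difference, L929 minus NIH3T3, of every tested probe set of the 17 genes with several, the brightest as a diamond and coloured by its call. All tested probe sets of Nrp1, Efnb2 and Slit2 were called lower and those of Efnb1, Efna2 and Unc5b higher, while Sema3a and Plxna1 had probe sets on both sides of 0.

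Several probe sets were tested for 17 genes, and 2 of these had probe sets of both signs, Sema3a and Plxna1, while 0 of the 17 had probe sets called in opposite directions. Of the 14 called genes, 9 had the same call in all 15 alternative settings: Slit2, Slit3, Nrp1, Sema3c, Sema7a and Efnb2 lower in L929, and Sema6b, Efnb1 and Unc5b higher.

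Ligands and receptors were also read as pairs, using 28 pairs known to bind, with no test. The pair of Efnb1 with Ephb2 could not be read, because Ephb2 had no probe set of its own, and it was counted as not above the level. By their brightest probe sets, both members lay above the filter level on both arrays for 12 pairs in L929 and 14 pairs in NIH3T3, and 7 pairs were shared by the lines: Sema3c with Nrp2, Sema3f with Nrp2, Sema4c with Plxnb2, Sema6a with Plxna2, Efna1 with Epha2, Efnb1 with Ephb3 and Efnb2 with Ephb4. Pairs above the level in L929 alone were Sema3b with Nrp2, Sema4a with Plxnd1, Sema6d with Plxna1, Efna5 with Epha7 and Slit2 with Robo1. Those above it in NIH3T3 alone were Sema3a and Sema3c with Nrp1, Sema4d with Plxnb1 and Plxnb2, Efna5 with Epha4 and Epha5, and Efnb2 with Epha4. For 3 of the 5 and for 5 of the 7 pairs the dimmer gene was above the level on 1 of the 2 arrays of the other line; the 2 pairs of Nrp1 were missing in L929 with both arrays of its brightest probe set below it, although the dimmer Nrp1 probe set described above read over the level there. Neither line had both members of a netrin pair above the level, because Ntn1 was dim, nor of a pair with Slit3.

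The other genes of the same pathways were a list of 105 further family members, co-receptors and intracellular effectors, chosen by their roles. The list was drawn up with earlier results of these data known, so its share of called genes is a description only. A probe set was available for 102 and 85 entered the test; 17 were higher and 24 lower in L929, which is 48.2% called beside 34.9% of all genes, and their median log2 difference was -0.16. By list, 3 of 21 other family genes were higher and 5 lower, 5 of 15 co-receptors and shedding proteases higher and 4 lower, 1 of 6 collapsin response mediators and Mical genes higher and 1 lower, 4 of 17 GTPase regulators higher and 7 lower, and 4 of 26 GTPases, kinases and adaptors higher and 7 lower.

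Among the family genes, Unc5a, a second netrin receptor, measured 119 and 161 in L929 and 6.19 and 4.24 in NIH3T3, both below the level, and was higher in L929 by at least 8.01-fold (limma adjusted p = 2.4e-05). Neo1, neogenin, a receptor of netrins and repulsive guidance molecules, was 2.42-fold higher, although its 5 probe sets ran from -0.43 to 1.31 on the log2 scale and the call was lost without scaling (limma adjusted p = 0.11). Plxnc1, the receptor of Sema7a, was at least 2.75-fold higher, so that it and its ligand went opposite ways. Flrt2, which binds Unc5 receptors and repels, measured 79.3 and 85.8 in L929 and 790 and 870 in NIH3T3, 9.25-fold lower (limma adjusted p = 3.3e-07), and Flrt3 was at least 3.11-fold lower. Efna3, with 1 of 2 L929 arrays above the level, differed by -2.15 on the log2 scale.

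Of the co-receptors, L1cam, an adhesion molecule that associates with Nrp1, measured 748 and 785 in L929 and 44.3 and 52.5 in NIH3T3, 13.8-fold higher (limma adjusted p = 2.7e-07). Sdc3, a heparan sulphate proteoglycan, was 4.56-fold higher and the shedding protease Adam17 1.92-fold higher; the call of Adam17 was lost without scaling (limma adjusted p = 0.32). Ptk7, a receptor-like pseudokinase, was at least 6.16-fold lower, and the proteoglycan Gpc4 was lower by a log2 difference of -3.16, with 1 of 2 L929 arrays above the level (-2.67 without L929 replicate 1 and -3.65 without L929 replicate 2). Nrcam was at least 1.47-fold lower, a call lost without L929 replicate 2 (limma adjusted p = 0.10), without NIH3T3 replicate 1 (limma adjusted p = 0.18) and with no filter (limma adjusted p = 0.58).

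Among the intracellular genes the largest differences were lower in L929. Enah, an actin regulator of the Ena/VASP family, measured 3.33 and 0.588 in L929 and 843 and 1008 in NIH3T3, at least 53.4-fold lower by its brightest probe set (log2 difference -6.56, limma adjusted p = 1.9e-07). Its 4 tested probe sets ran from -6.56 to -2.12, and the value was -4.05 without NIH3T3 replicate 1 and -3.95 without NIH3T3 replicate 2, where another probe set was the brightest. Farp1, a FERM-domain exchange factor, measured 1.34 and 1.70 in L929 and 758 and 748 in NIH3T3, at least 43.6-fold lower (limma adjusted p = 1.2e-07). This rests on 1 of its 2 probe sets, since the other did not pass the filter in either line. Ngef, or ephexin, an exchange factor bound by EphA receptors, was at least 24.9-fold lower. The Rac exchange factor Tiam1 was at least 8.37-fold lower, by the 1 of its 3 probe sets that was tested. Dpysl3, a collapsin response mediator, measured 22.9 and 8.21 in L929 and 817 and 689 in NIH3T3, a log2 difference of -5.08 with 1 of 2 L929 arrays above the level, or -6.33 without L929 replicate 1.

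Evl, a relative of Enah, differed by -3.31, but its probe sets ran from -5.49 to -0.40 and the call was lost without NIH3T3 replicate 2 (-0.58, limma adjusted p = 0.15), and the value was -5.25 without L929 replicate 1 and -5.71 without L929 replicate 2. The sign of Abl1, a tyrosine kinase that acts below Robo receptors, was not settled, since its brightest probe set differed by -1.38 and another by 1.26. In the other direction, Rnd1, a GTPase that binds plexins, was 2.06-fold higher and Limk1, the kinase of cofilin, 1.81-fold higher; both calls were lost without scaling, and that of Limk1 also as the mean of its probe sets. The Rac inactivators Chn1 and Chn2 were at least 1.75-fold and at least 1.33-fold higher, from dim signals, and Ablim1 differed by 1.17 on the log2 scale with 1 of 2 NIH3T3 arrays above the level. These 3 calls each depended on single arrays: Chn2 was lost without L929 replicate 2 (limma adjusted p = 0.053), Chn1 without L929 replicate 2 (0.057) or NIH3T3 replicate 2 (0.054), and Ablim1 without L929 replicate 1 (0.057). Chn1 and Ablim1 were also lost without scaling. Dpysl2, the most studied collapsin response mediator, was 1.50-fold higher (limma adjusted p = 0.018), at the fold threshold. Its 2 probe sets differed by 0.59 and -0.17 on the log2 scale, and the call was lost as their mean (0.21, limma adjusted p = 0.32). Among other settings it was also lost without L929 replicate 1 (log2 difference 0.56), L929 replicate 2 (0.62) or NIH3T3 replicate 2 (0.36).

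**Figure D4:**
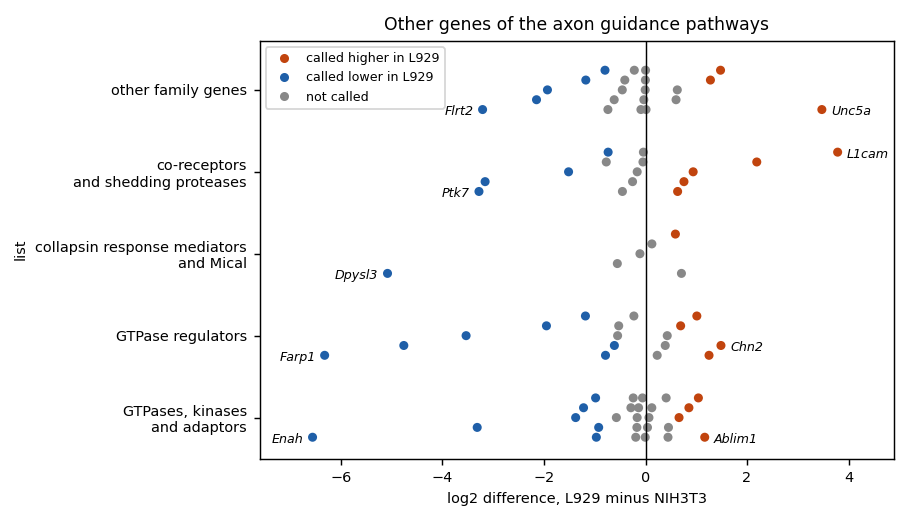
Log2 difference, L929 minus NIH3T3, of the 85 other pathway genes tested, by list and coloured by call; vertical offsets within a list only separate points. The longest differences are those of Enah (-6.56) and Farp1 (-6.32) on the side lower in L929, and L1cam (3.78) and Unc5a (3.47) on the higher side.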

How the data were processed

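Gene expression in L929 and NIH3T3 cells was measured on 4 arrays, grouped by their titles. Each probe set has 1 deposited intensity per array, a MAS5 signal per the submitters' processing notes; the version, scaling target and a genome build were not given in the sources used here. Of 45037 probe sets that are not controls, 34945 have 1 gene symbol, 932 several and 9160 none in the platform annotation, and only the first were named; the gene table of GRCm38.p6 changed 0 symbols.

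Each array was scaled to a common mean that trims 2% of probe sets at each end, an offset of 8.01 (the 25th percentile) was added and log2 taken. The test was limma's moderated linear model (limma 3.58.1 under R 4.3.3; lmFit, then eBayes with trend) on all 4 arrays, and p-values were Benjamini-Hochberg adjusted over 12676 genes; the offset shrinks the fold of dim genes. Where a line lay at or below the filter level on both arrays, "at least" gives the other line's mean log2 signal against 17.3, with the fit's adjusted p; where 1 of its arrays lay above but its mean log2 signal lay below, no fold is given. Figures were drawn with matplotlib 3.10.9. The procedure was tested on simulated data, with changes placed only in the brighter of the tested probe sets, so calls of dim genes were not covered. The genes, lists and tests were chosen with earlier results of these data known. All 46 listed genes are named; of the other pathway genes, up to 3 called per direction and list, of which 1 is not reported here.

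Same-numbered arrays did not deviate together (r = 0.014 across tested probe sets), so the numbers were not used as pairs. The alternatives changed the scaling, offset, filter, value per gene, trend, replicate block and the arrays included.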

Additional observations from a re-analysis of the deposited data

How the results depend on the processing

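Over 15 alternatives, 8 guidance genes higher in L929 became 4 without scaling, a setting in which NIH3T3 replicate 2 keeps its higher signals and the hybridisation controls range from 1615 to 1821, against 1173 to 2051 with scaling; in the same setting 818 of all genes (2192 with scaling) and 5 of the other pathway genes (17 with scaling) were higher, and 31.2% of called genes were higher, against 49.5%. Leaving out 1 array gave 6 to 8 guidance genes higher and 6 to 7 lower, 14 to 18 and 22 to 28 other pathway genes, and 1968 to 2151 and 1928 to 2236 of all genes. The mean of all tested probe sets gave 12 higher and 8 lower guidance genes, beside 2169 and 2190 of all 12676 genes. The share of guidance genes called was above that of the array in this setting. With a replicate block the counts were 8 and 7 guidance genes, 17 and 24 other pathway genes, and 2208 and 2280 of all genes, and Epha4 was the member whose call changed. The numbers pair nothing in the labels, and the check of r = 0.014 gave no sign that they do.

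Signs turned for 5 genes that were not called: Sema3a without scaling (-0.11) and as the mean of its probe sets (-0.15), Sema3f without scaling (-0.24) and with 1 array left out (-0.48 to 0.57), Plxna1 without scaling (-0.017), Robo1 without scaling (-0.028) and with 1 array left out (-0.025 to 0.38), and Unc5c with 1 array left out (-0.54 to 0.046). The cause was not tested. Epha7 did not pass the stricter filter or that on the mean, which therefore give it no value. With an offset of 32, the difference of Nrp1 was -3.67 and that of Slit3 -3.53, and with an offset of 1 they were -5.60 and -5.61. Where an arm was left with 1 array, that array was assumed to vary like those of the other line. Signal near background limits the values of Epha7, Efna2, Robo1 and the netrins.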
